A study of Drosophila melanogaster and Drosophila mauritiana and Drosophila simulans with 22 samples.

Results

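The genes described here are the ribosomal protein and translation factor genes of Drosophila, the genes whose products build the ribosome and drive it along a messenger RNA. A gene was included if its symbol in the probe table begins with RpL or RpS followed by a digit or P, with eIF (initiation factor) or with eEF (elongation factor). This gave 53 of 6793 genes with a single symbol, or 0.780% of them: 23 ribosomal protein genes, 26 initiation factor genes and 4 elongation factor genes. Tests were run on genes measured on 2 or more arrays in all 7 groups, which 47 of the 53 were, among 5107 genes in all. Members carried on the array under another symbol are not among them.

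The study compared testis RNA of 3 kinds of hybrid males and of the species that produced them. The hybrids came from D. simulans mothers and differ in the father, after whose species each is called: melanogaster hybrid, mauritiana hybrid or sechellia hybrid. Vials held 10 females and 15 males. The parental groups were D. sechellia (strain #12 on the arrays whose label gives one), D. mauritiana (14021-0241.1), D. simulans (14021-0251.2) and D. melanogaster (14021-0231.00). All were 4-day-old males reared at 25 °C with 12 h of light, and each sample was RNA from 200 pooled testes dissected free of accessory glands. D. mauritiana had 4 arrays and every other group 3. On each array testis RNA, amplified in 1 round and labelled with Cy5, was set against unamplified Cy3-labelled RNA of whole D. melanogaster males. A value is thus a log2 ratio of testes over whole melanogaster males, centred on the median of its array: 0 is the level of a typical gene on that array, not an absolute amount. The dyes were never exchanged. The design text calls the replicates independent without saying whether they came from separate cultures, so p-values cover only the spread seen between these samples, which may be technical.

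Translation starts when initiation factors bring the small ribosomal subunit to a messenger RNA: eIF4E binds the cap, eIF4G links it to eIF3 on the subunit, and the helicase eIF4A with its partners eIF4B and eIF4H opens the leader. Elongation factors then deliver tRNAs to a ribosome made of ribosomal RNA and many ribosomal proteins. In Drosophila, several of these proteins have a second gene copy with high expression in the male germline, where messenger RNAs made in spermatocytes are stored and translated later, after transcription has largely ceased. Mutants of the testis copies eIF4G2 and eIF4E3 are known to fail in male meiosis and spermatid formation.

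The arrays differed in quality. Taken from the differences between duplicate spots of a row pair, the SD of a single spot was 0.22 to 0.48 (log2) on the 19 arrays outside D. sechellia. It was between 1.30 and 1.85 on the 3 sechellia arrays. Sechellia 2 and 3 also held 2703 and 2526 values of exactly 0, 8 and 4 of them in spots of the genes described here. The first 2 sechellia hybrid arrays gave values for 44 of the 53 genes each, and every other array for 46 to 53. Results on D. sechellia and its hybrid rest on these arrays, and are given with the number that passes when the spread is taken from the compared arrays only. The probe table names melanogaster genes, and how well each spot binds the RNA of another species was not tested: between species, sequence differences and RNA level cannot be told apart. Near-identical gene copies can also share signal on one spot.

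**Figure D1:**
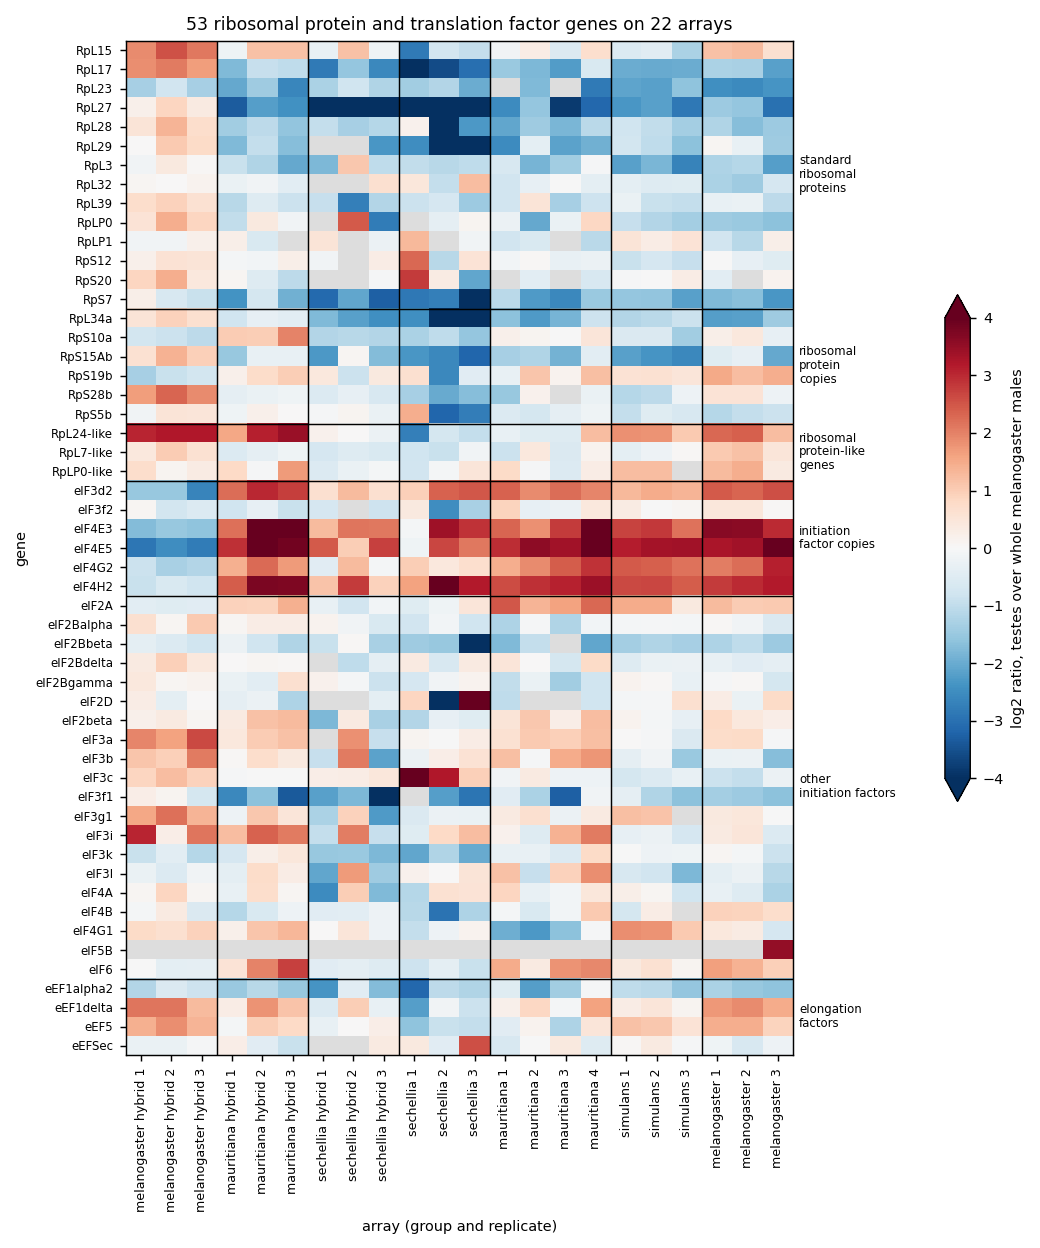
Centred log2 ratio of testes over whole melanogaster males for all 53 genes (rows, by class) on all 22 arrays (columns, by group); red is above and blue below the array median, colours end at 4 in either direction, and grey marks no value. The initiation factor copies other than eIF3f2 are red on every melanogaster, simulans and mauritiana array and blue on the 3 melanogaster hybrid arrays. In that hybrid 17 of the 47 tested genes passed as higher than the parental mean (36.2%, against 12.4% of all tested genes).

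In melanogaster testes, compared with whole melanogaster males, the members divided by class. Of the 47 tested, 14 were higher (29.8%, against 30.4% of all tested genes) and 10 were lower (21.3%, against 13.9%) at a limma adjusted p under 0.05. Their median log2 ratio was -0.23, against 0.18 for all tested genes. The testis RNA alone was amplified and always carried Cy5, so tissue, amplification and dye cannot be told apart in this comparison. Of the tissue markers, 7 of 9 testis markers were higher, and both accessory gland markers, both gut markers, all 3 eye markers and 3 of 4 muscle markers were lower. Neither of the 2 fat body markers passed, and their array median was -0.88 to 0.06.

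The initiation factor copies stood highest. eIF4E5, a germline form of the cap-binding protein, had log2 ratios of 3.26, 3.36 and 4.43 on the 3 melanogaster arrays. The other cap-binding copy, eIF4E3, had 3.65, 3.61 and 2.99. Their mean ratios of 3.68 ± 0.41 (SE, adjusted p = 8.05e-07) and 3.42 ± 0.50 (adjusted p = 1.71e-05) correspond to 12.8-fold and 10.7-fold, and on every array both were above the array median.

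The testis scaffold eIF4G2 had 2.05, 2.23 and 3.12, a mean of 2.47 ± 0.31 (SE, adjusted p = 2.9e-06). For eIF3d2, a copy of the eIF3 subunit that contacts the cap in mammals, the arrays gave 2.45, 2.34 and 2.59, a mean of 2.46 ± 0.28 (adjusted p = 8.84e-07). eIF4H2, named after the mammalian helicase partner eIF4H, had 2.81, 3.00 and 3.19, with a mean of 3.00 ± 0.42 (adjusted p = 8.96e-06). The sixth of these copies, eIF3f2, lay at 0.46, 0.46 and 0.04 and did not pass. So 5 of the 6 copies were higher in testes, whereas among the 18 other tested initiation factors 2 were higher, 2 were lower and 14 did not pass. eIF4G1, the general eIF4G, lay at 0.43, 0.33 and -0.66.

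Among those 18, the higher ones were eIF6, which keeps the ribosomal subunits apart, at 1.34 ± 0.32 (SE, adjusted p = 0.0022), and eIF2A, at 1.11 ± 0.27 (adjusted p = 0.0021). The lower ones were eIF2Bbeta, a subunit of the exchange factor that recharges eIF2, at -1.25 ± 0.40 (adjusted p = 0.0169), and the eIF3 subunit eIF3f1, at -1.48 ± 0.49 (adjusted p = 0.0181). eIF3g1, the general copy of another eIF3 subunit, had 0.38, 0.45 and -0.03.

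Standard ribosomal protein genes, those with no letter or suffix marking a copy, mostly lay below the array median. Of 11 tested, 6 were lower, 1 was higher and 4 did not pass, with a median of -1.53. Spot pairs disagreed for 2 genes that did not pass, RpL39 (0.23 and -1.31) and RpS12 (-1.47 and 0.93). The second pair of RpL39 passed alone (adjusted p = 0.000855). RpL23 had log2 ratios of -2.47, -2.55 and -2.37, a mean of -2.46 ± 0.27 (SE, adjusted p = 1.01e-06), the lowest of the 47. RpL27 had -1.45, -1.54 and -2.98, RpL17 had -1.26, -1.28 and -2.17, and RpS7 had -1.76, -1.68 and -2.31. Their means were -1.99 ± 0.38, -1.57 ± 0.31 and -1.92 ± 0.50 (adjusted p = 0.000233, 0.000303 and 0.0035). RpL3, a core protein of the large subunit, averaged -1.53 ± 0.40 (adjusted p = 0.0043), and did not pass without melanogaster 3 (adjusted p = 0.0653). RpL15 was the one higher gene, at 1.18, 1.25 and 0.63.

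The ribosomal protein copies did not move as a block. RpS19b, a germline form of a small-subunit protein, had 1.51, 1.25 and 1.46, a mean of 1.40 ± 0.41 (SE, adjusted p = 0.0087). RpL34a had -2.20, -2.16 and -1.41, a mean of -1.93 ± 0.46 (adjusted p = 0.0019). RpS5b (-1.15, -0.94, -0.86), RpS10a (0.23, 0.42, -0.33), RpS15Ab (-0.49, -0.33, -2.04) and RpS28b (0.56, 0.55, -0.21) did not pass. All 3 ribosomal protein-like genes, whose yeast relatives act in assembly of the large subunit and not in the finished ribosome, were higher: RpL24-like at 1.97 ± 0.40, RpLP0-like at 1.02 ± 0.32 and RpL7-like at 0.90 ± 0.25 (adjusted p = 0.000441, 0.0137 and 0.0060). The 2 spot pairs of RpL7-like differed, averaging 1.61 ± 0.59 and 0.18 ± 0.15 (SD, n = 3 arrays each).

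Elongation factors went both ways. eEF1delta, a subunit of the exchange factor of eEF1, averaged 1.70 ± 0.38 (SE, adjusted p = 0.0011), and eEF5, the hypusine-carrying factor, 1.26 ± 0.29 (adjusted p = 0.0014). eEF1alpha2, a copy of the tRNA-carrying factor, averaged -1.46 ± 0.40 (adjusted p = 0.0053). Both of its spot pairs were below 0, by different amounts (-2.08 ± 0.44 and -0.72 ± 0.07, SD, n = 3 arrays each).

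**Figure D2:**
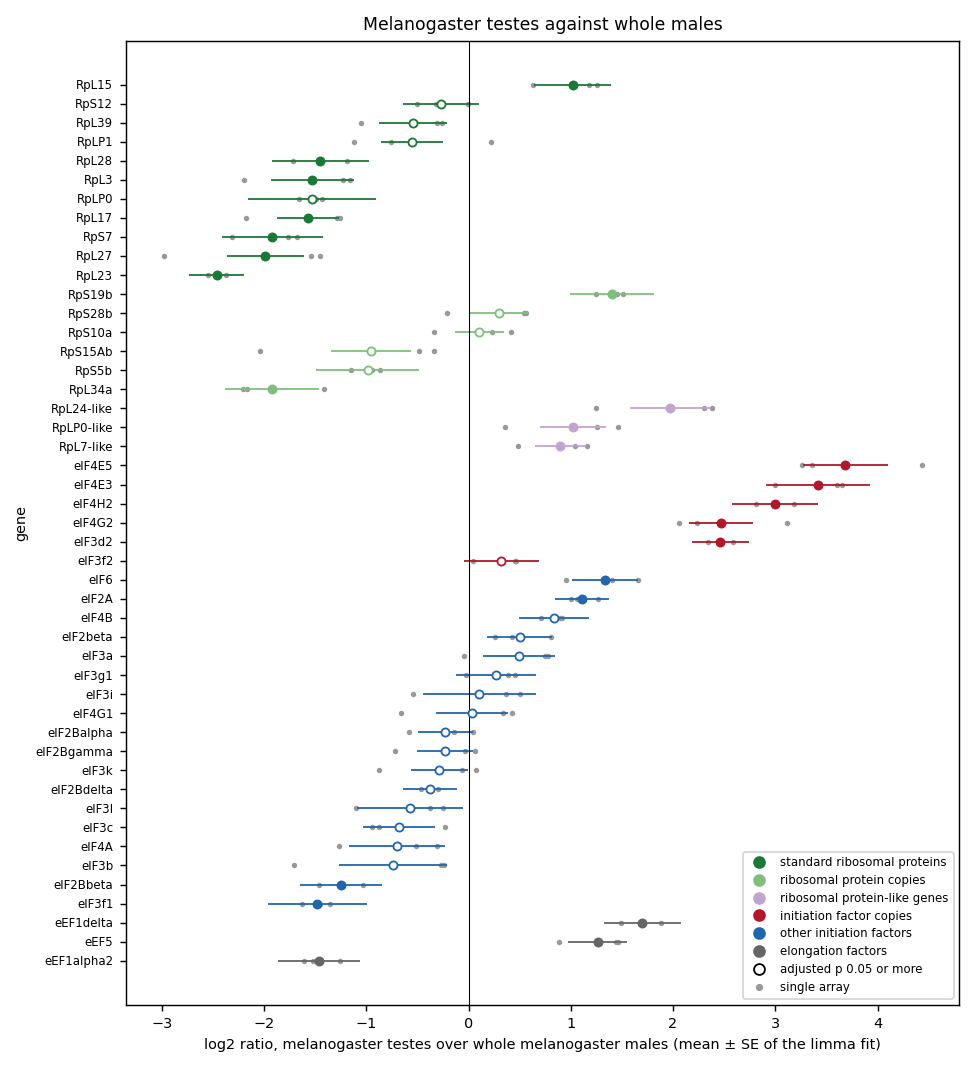
Log2 ratio of melanogaster testes over whole melanogaster males for the 47 tested genes, as the mean ± SE of the limma fit (coloured by class, filled where the adjusted p is under 0.05) with the 3 single arrays in grey. eIF4E5, eIF4E3, eIF4H2, eIF4G2 and eIF3d2 lie between 2.46 and 3.68, while most standard ribosomal protein genes lie below 0.

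The melanogaster hybrid departed furthest from its parents. Against the mean of D. simulans and D. melanogaster, 17 of the 47 members were higher (36.2%, against 12.4% of all tested genes) and 8 were lower (17.0%, against 19.6%). The member median was 0.76 and that of all tested genes 0.03. All 3 hybrid arrays lay above all 6 parental arrays for 22 members (46.8%, against 21.1% of all tested genes), and below all 6 for 8 members (17.0%, against 22.7%). The arrays hold whole testes, so fewer cells of a type and less RNA per cell cannot be told apart. This contrast and the one above share the melanogaster arrays.

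The testis copies of the initiation machinery fell. eIF4E5 had log2 ratios of -2.90, -2.49 and -2.81 in the melanogaster hybrid, against 3.15, 3.34 and 3.35 in D. simulans and 3.26, 3.36 and 4.43 in D. melanogaster. The groups were far apart on every array, and the difference of -6.22 ± 0.51 (SE, adjusted p = 1.24e-08) corresponds to 74.3-fold less than the parental mean. eIF4E3 had -1.74, -1.52 and -1.62 in the hybrid, against 2.70, 2.82 and 2.18 in D. simulans and 3.65, 3.61 and 2.99 in D. melanogaster, a difference of -4.62 ± 0.62 (adjusted p = 5.8e-06). No array of the hybrid came within the parental range for either cap-binding copy.

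eIF4G2, the testis scaffold, had -0.85, -1.29 and -1.16 in the hybrid, against 2.44, 2.40 and 2.18 in D. simulans and 2.05, 2.23 and 3.12 in D. melanogaster. For eIF3d2 the hybrid arrays gave -1.52, -1.52 and -2.64, against 1.30, 1.49 and 1.36 in D. simulans and 2.45, 2.34 and 2.59 in D. melanogaster. eIF4H2 had -0.90, -0.61 and -0.79 in the hybrid, against 2.63, 2.66 and 2.43 in D. simulans and 2.81, 3.00 and 3.19 in D. melanogaster. These 3 differed from the parental mean by -3.50 ± 0.38, -3.82 ± 0.34 and -3.55 ± 0.51 (adjusted p = 4.16e-07, 3.57e-08 and 1.37e-05), again with no overlap between hybrid and parents. eIF3f2 differed by -0.63 and did not pass. Thus the 5 copies that passed as higher in melanogaster testes lay below the array median on every array of the hybrid. The general scaffold eIF4G1, at 0.75, 0.63 and 0.92 in the hybrid, did not pass.

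The other lower members were eIF2A (-1.57 ± 0.33, adjusted p = 0.000761), eIF6 (-1.11 ± 0.40, adjusted p = 0.0368) and RpS19b. RpS19b had -1.32, -0.90 and -0.75 in the hybrid, against 0.58, 0.60 and 0.47 in D. simulans and 1.51, 1.25 and 1.46 in D. melanogaster, a difference of -1.97 ± 0.50 (adjusted p = 0.0045). It was the one ribosomal protein gene that fell.

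**Figure D3:**
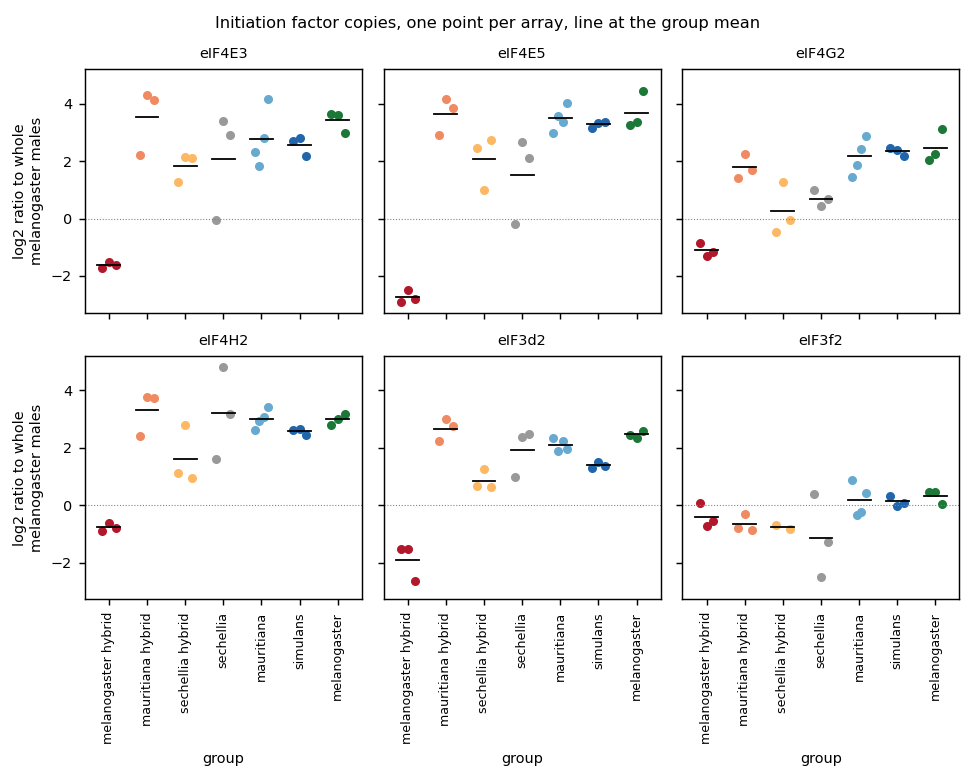
Log2 ratio of testes over whole melanogaster males for the 6 initiation factor copies (panels) in each group (horizontal axis), with 1 point per array and a line at the group mean. For eIF4E3, eIF4E5, eIF4G2, eIF4H2 and eIF3d2 the 3 melanogaster hybrid arrays lie below 0 and below every simulans and melanogaster array; eIF3f2 lies between -0.74 and 0.46 in these 3 groups.

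Ribosomal protein genes rose in the same hybrid. Of the 20 tested, 12 were higher, 1 was lower and 7 did not pass, with a median difference of 1.40. RpL17 had 1.85, 2.07 and 1.68 in the melanogaster hybrid, against -1.98, -2.01 and -1.98 in D. simulans and -1.26, -1.28 and -2.17 in D. melanogaster. Its difference of 3.64 ± 0.37 (SE, adjusted p = 2.18e-07), or 12.5-fold, was the highest of the 47. RpL27 had 0.21, 0.87 and 0.36 in the hybrid, against -2.33, -2.19 and -2.85 in D. simulans and -1.45, -1.54 and -2.98 in D. melanogaster, a difference of 2.71 ± 0.46 (adjusted p = 9.75e-05). Both genes were well below the array median in both parents and above it in the hybrid.

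RpL15 had 1.88, 2.55 and 2.11 in the hybrid, against -0.54, -0.44 and -1.27 in D. simulans and 1.18, 1.25 and 0.63 in D. melanogaster (difference 2.04 ± 0.46, adjusted p = 0.0015). The remaining standard genes called higher were RpLP0, which anchors the ribosomal stalk (2.29 ± 0.77, adjusted p = 0.0276), RpL28 (2.10 ± 0.58, adjusted p = 0.0077), RpL3 (1.98 ± 0.49, adjusted p = 0.0037), RpL39 (1.37 ± 0.41, adjusted p = 0.0131) and RpL23 (1.08 ± 0.33, adjusted p = 0.0160). For each of these 6 genes all hybrid arrays lay above all arrays of both parents. RpL39 is on the array as 2 spot pairs that differed in the hybrid, with means of 1.76 and -0.26, and only the first passed on its own (adjusted p = 0.0367 and 0.0525). RpS7, RpS12 and RpLP1 did not pass. The 2 pairs of RpS12 disagreed, at 1.14 and -0.28 in the hybrid, so its average has no clear reading. In all, 8 of 11 standard genes were higher and none was lower.

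Among the copies, RpS15Ab had 0.62, 1.38 and 0.94 in the hybrid, against -2.19, -2.35 and -2.57 in D. simulans and -0.49, -0.33 and -2.04 in D. melanogaster. Its difference was 2.64 ± 0.48 (SE, adjusted p = 0.000203), and both of its spot pairs passed alone (3.06 and 2.22). RpS28b had 1.66, 2.34 and 1.89 in the hybrid, against -1.15, -1.06 and -0.21 in D. simulans and 0.56, 0.55 and -0.21 in D. melanogaster (2.22 ± 0.35, adjusted p = 5.21e-05). RpL34a had 0.52, 0.93 and 0.64 in the hybrid, against -1.18, -1.09 and -0.86 in D. simulans and -2.20, -2.16 and -1.41 in D. melanogaster (2.18 ± 0.56, adjusted p = 0.0046). Hybrid and parental arrays did not overlap for these 3. RpS5b (-0.15, 0.51 and 0.50 in the hybrid) and RpS10a (-0.74, -0.86 and -1.04) did not pass. Of the ribosomal protein-like genes, RpL24-like rose by 1.38 ± 0.49 (adjusted p = 0.0345), with 3.03, 3.19 and 3.21 in the hybrid, while RpL7-like and RpLP0-like did not pass.

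**Figure D4:**
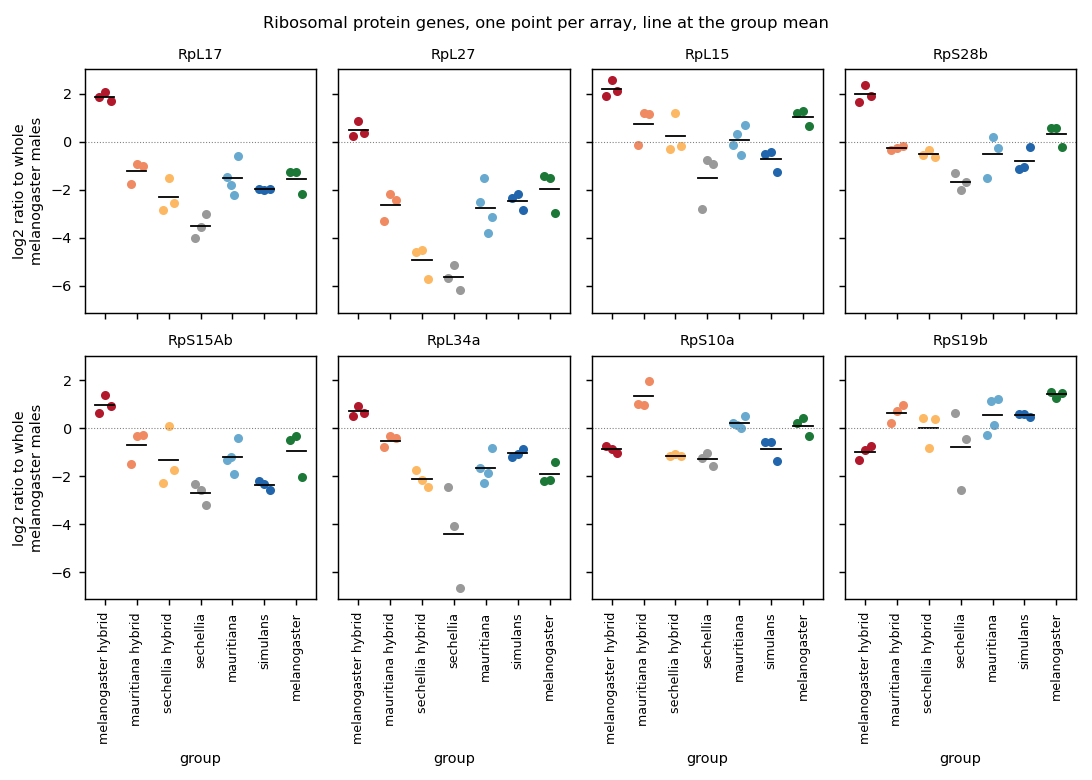
Log2 ratio of testes over whole melanogaster males for 8 ribosomal protein genes (panels) in each group (horizontal axis), with 1 point per array and a line at the group mean. RpL17, RpL27, RpL15, RpS28b, RpS15Ab and RpL34a are highest in the melanogaster hybrid, RpS10a is highest in the mauritiana hybrid, and RpS19b lies below both parents in the melanogaster hybrid.

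Of the 18 other initiation factors tested, 5 were higher in the melanogaster hybrid, 2 were lower and 11 did not pass. The higher ones were 4 of the 8 general eIF3 subunits tested, eIF3a, eIF3b, eIF3c and eIF3i, together with eIF2Bdelta. eIF3a, a scaffold subunit of eIF3, had 1.95, 1.60 and 2.65 in the hybrid, against 0.01, -0.05 and -0.56 in D. simulans and 0.74, 0.78 and -0.05 in D. melanogaster, a difference of 1.92 ± 0.43 (SE, adjusted p = 0.0017). Differences for the others were 2.08 ± 0.64 for eIF3b, 1.62 ± 0.43 for eIF3c, 1.97 ± 0.68 for eIF3i and 0.93 ± 0.33 for eIF2Bdelta (adjusted p = 0.0166, 0.0062, 0.0308 and 0.0347). The hybrid arrays lay above all parental arrays for each of them but eIF3i, whose hybrid values of 3.04, 0.27 and 2.15 overlapped the parents. eIF3f1 (0.26, 0.12 and -0.72 in the hybrid), eIF3g1 (1.54, 2.22 and 1.37), eIF3k and eIF3l did not pass. The 3 elongation factors differed by 0.46 to 0.84 and did not pass.

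Markers of the tissue moved with these groups. Of 9 testis markers tested, 8 fell in the melanogaster hybrid against its parents, from -2.44 for schuy to -5.62 for Mst87F, and bam, a gene of early germ cells, did not pass (0.86 ± 0.54 SE, adjusted p = 0.2666). The median of the 9 on single arrays was -2.66 to -2.09 in the melanogaster hybrid, against 1.43 to 1.51 in D. simulans and 1.98 to 2.32 in D. melanogaster. Both accessory gland markers rose, Acp53Ea by 5.77 ± 0.44 and Acp36DE by 3.66 ± 0.73 (adjusted p = 5.39e-09 and 0.000462), although the labels give testes without accessory glands. Their array median was 0.55 to 1.40 in the melanogaster hybrid, against -3.37 to -3.12 in D. simulans and -4.95 to -3.90 in D. melanogaster. Of the other lists, 2 of 3 eye markers rose and 1 of 4 muscle markers fell, while none of 2 gut and 2 fat body markers passed. The part of these cells in the changes of the ribosomal protein and translation factor genes was not tested.

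The mauritiana hybrid had the same mother species, and few members passed in it. Against the mean of D. simulans and D. mauritiana, 2 members were higher (4.26%, against 1.78% of all tested genes) and 0 were lower (0.0%, against 0.548%). At an unadjusted p under 0.05 there were 8 (17.0%, against 15.3% of all tested genes). RpS10a, a copy of a small-subunit protein, had 1.0, 0.98 and 1.98 in the mauritiana hybrid, against 0.20, 0.11, -0.01 and 0.50 in D. mauritiana and -0.59, -0.58 and -1.39 in D. simulans. No hybrid array overlapped a parent, and the difference was 1.65 ± 0.29 (SE, adjusted p = 0.0033). It did not pass without mauritiana hybrid 3 or without centring. RpL24-like had 1.56, 3.12 and 3.47 in the hybrid, against -0.29, -0.48, -0.53 and 1.25 in D. mauritiana and 1.82, 1.79 and 1.04 in D. simulans, so that the groups overlapped. Its difference of 1.95 ± 0.48 (adjusted p = 0.0324) did not pass without mauritiana hybrid 2 or 3, without mauritiana 1 or 3, or without any one of the simulans arrays (adjusted p up to 0.3075).

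The initiation factor copies of the mauritiana hybrid overlapped their parents. eIF4E5 had 2.92, 4.17 and 3.86 in the hybrid, against 2.97, 3.58, 3.37 and 4.03 in D. mauritiana and 3.15, 3.34 and 3.35 in D. simulans. eIF4E3 had 2.21, 4.32 and 4.12, and eIF4G2 1.42, 2.25 and 1.69. The 6 copies differed from the parental mean by -0.82 to 0.92, and none passed. None of the 11 standard ribosomal protein genes passed either, and their median difference was 0.13, which turned to -0.14 without centring. In this hybrid 1 of the 2 accessory gland markers rose, with an array median of -1.09 to -0.15, and none of the 9 testis markers passed.

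The difference between these 2 hybrid effects was tested in the same fit. The effect against the parental mean was higher in the melanogaster hybrid for 6 members (12.8%, against 5.58% of all tested genes) and lower for 8 (17.0%, against 17.4%). The lower ones were eIF4E5 (-6.48 ± 0.65 SE), eIF4E3 (-5.49 ± 0.79), eIF3d2 (-4.74 ± 0.44), eIF4H2 (-4.06 ± 0.65), eIF4G2 (-3.04 ± 0.48), RpS10a, RpS19b and eIF6. The higher ones were RpL17 (3.11 ± 0.48), RpL27 (2.75 ± 0.59), eIF3f1, RpL28, RpS28b and RpL39. These effects share the simulans arrays. Set directly against the mauritiana hybrid, the melanogaster hybrid had 9 members higher (19.1%, against 7.95%) and 9 lower (19.1%, against 18.2%). The lowest of them was eIF4E5, by -6.38 ± 0.59, and the highest RpL27, by 3.13 ± 0.53 (adjusted p = 8.36e-08 and 0.000117). RpS10a was lower by 2.20 on the log2 scale, with -0.74, -0.86 and -1.04 in the melanogaster hybrid and 1.0, 0.98 and 1.98 in the mauritiana hybrid. The call of eIF3f1 was lost without mauritiana hybrid 3, that of RpL28 without melanogaster hybrid 2 or mauritiana hybrid 3, and that of RpL39 without melanogaster hybrid 2 or mauritiana hybrid 1 (adjusted p up to 0.0777).

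For the sechellia hybrid, 0 members passed against the mean of D. simulans and D. sechellia in either direction (background 1.04% higher and 4.78% lower). At an unadjusted p under 0.05 there were 11 members (23.4%, against 24.0% of all tested genes). With the spread taken from the compared arrays only, the count was also 0 in either direction (background 0.0% higher and 0.0196% lower). Without sechellia 1 the count was 7, and without sechellia hybrid 2 it was 5. For these 2 counts the share of all tested genes is not given, so they cannot be set against the background. Among the initiation factor copies, eIF4E5 had 2.46, 0.98 and 2.73 in the sechellia hybrid, against -0.18, 2.67 and 2.10 in D. sechellia and 3.15, 3.34 and 3.35 in D. simulans. The hybrid arrays overlapped those of D. sechellia and lay below every simulans array. So did eIF4G2, eIF3d2 and eIF3f2 lie below every simulans array, and eIF4E3 narrowly (2.13 at most, against 2.18 at least). eIF4H2 overlapped D. simulans. The share of all tested genes lying below every simulans array in this hybrid was not counted. The sechellia hybrid was not tested against D. simulans alone. The 6 copies differed from the parental mean by -1.27 to -0.25, and none passed. In this hybrid 3 of the 9 testis markers fell and neither accessory gland marker passed.

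**Figure D5:**
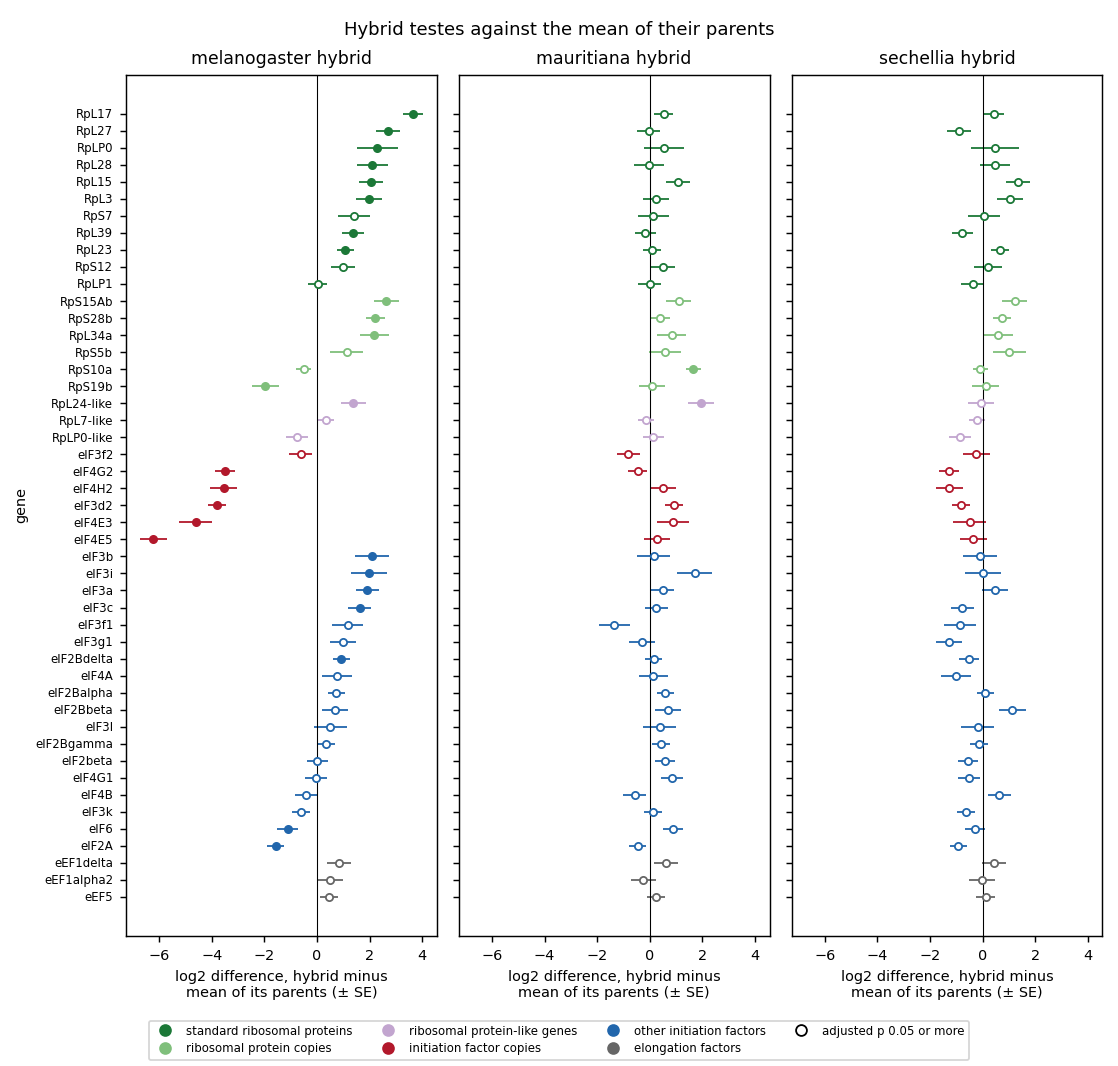
Log2 difference between each hybrid (panels) and the mean of its parents for the 47 tested genes, as the estimate ± SE of the limma fit, coloured by class and filled where the adjusted p is under 0.05. Genes lie on both sides of 0 in every panel. Filled genes number 17 to the right and 8 to the left in the melanogaster hybrid (12.4% and 19.6% of all tested genes passed). They number 2 and 0 in the mauritiana hybrid (1.78% and 0.548%) and 0 and 0 in the sechellia hybrid (1.04% and 4.78%).

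Between D. simulans, D. mauritiana and D. melanogaster few members passed. For D. simulans against D. melanogaster, 0 members passed in either direction (background 0.0392% higher and 1.02% lower), and 10 reached an unadjusted p under 0.05 (21.3%, against 10.9% of all tested genes). With the spread of those 6 arrays only, 3 were higher (6.38%, against 4.19% of all tested genes) and 9 were lower (19.1%, against 13.9%). The count for this pair therefore depends on the spread used.

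D. mauritiana against D. melanogaster gave 0 higher members (background 2.19%) and 3 lower ones (6.38%, against 4.44%). RpL24-like had -0.29, -0.48, -0.53 and 1.25 in D. mauritiana, against 2.30, 2.38 and 1.25 in D. melanogaster, a difference of -1.99 ± 0.53 (SE, adjusted p = 0.0283). eEF5 had -0.44, 0.13, -1.24 and 0.47 in D. mauritiana, against 1.46, 1.44 and 0.88 in D. melanogaster, a difference of -1.53 ± 0.38 (adjusted p = 0.0219). RpL7-like differed by -1.12 ± 0.33 (adjusted p = 0.0459). None of the 3 overlapped between the species, though RpL24-like on mauritiana 4 and melanogaster 3 differed only past the third decimal. All 3 calls were lost without melanogaster 1, melanogaster 2, mauritiana 1 or mauritiana 3, and that of RpL7-like also without melanogaster 3 (adjusted p up to 0.2498).

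D. mauritiana against D. simulans gave 1 higher member (2.13%, against 6.74%) and 2 lower ones (4.26%, against 4.29%). eIF4G1, the general scaffold of the cap complex, had -1.94, -2.29, -1.63 and -0.04 in D. mauritiana, against 1.86, 1.81 and 1.05 in D. simulans. The difference of -3.04 ± 0.46 (SE, adjusted p = 0.000475), or 8.25-fold, passed under every alternative run on it, and both spot pairs of the gene passed alone (-2.93 and -3.16). Levels of eIF4G1 in the other groups lay between these species: 0.21, 1.12 and 1.31 in the mauritiana hybrid, and -0.94, -0.21 and 0.14 in D. sechellia. RpS10a was higher in D. mauritiana by 1.05 ± 0.32 (adjusted p = 0.0382) and eEF5 lower by 1.20 on the log2 scale (adjusted p = 0.0490). Both of these were lost without any one simulans array and without mauritiana 1 or 3, RpS10a also without mauritiana 4 (adjusted p up to 0.2190).

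In D. sechellia, most of the members that passed were lower. Against D. melanogaster 1 was higher (2.13%, against 7.66% of all tested genes) and 20 were lower (42.6%, against 26.1%). Against D. simulans 1 was higher (2.13%, against 6.76%) and 12 were lower (25.5%, against 19.5%). Medians of the members were -1.15 and -0.76, against -0.48 and -0.36 for all tested genes. After quantile normalization they were -0.42 and -0.12, against -0.19 and -0.09, and with arrays scaled to 1 spread the members' median against D. simulans was -0.29, as was that of all tested genes. The median of the 11 standard ribosomal protein genes turned under quantile normalization, to 0.69 against D. melanogaster (otherwise -0.45) and to 0.50 against D. simulans (otherwise -0.28). That of all 20 ribosomal protein genes against D. simulans turned likewise, to 0.21 (otherwise -0.78). With the spread of the compared arrays only, the lower calls came to 12 (25.5%, against 12.4% of all tested genes) and 5 (10.6%, against 5.37%). The higher calls came to 1 (2.13%, against 1.78%) and 0 (0.0%, against 1.08%). The 2 contrasts share the sechellia arrays.

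RpL27 had -5.67, -5.14 and -6.17 in D. sechellia, against -2.33, -2.19 and -2.85 in D. simulans and -1.45, -1.54 and -2.98 in D. melanogaster. It differed by -3.20 ± 0.53 and -3.67 ± 0.53 (SE, adjusted p = 0.000308 and 4.11e-05). After quantile normalization these differences were -0.13 and -1.05 and did not pass, and the one against D. simulans also did not pass with arrays scaled to 1 spread. The sechellia hybrid also had low RpL27, at -4.62, -4.52 and -5.72, so in this gene the sechellia hybrid lay below every simulans array and close to its father's species. RpL24-like had -2.73, -0.70 and -0.94 in D. sechellia and lay below D. simulans by 3.01 and below D. melanogaster by 3.43 on the log2 scale (adjusted p = 0.000896 and 0.000132). eEF5 had -1.62, -0.90 and -0.95 in D. sechellia, against 1.16, 1.08 and 0.55 in D. simulans and 1.46, 1.44 and 0.88 in D. melanogaster, and passed in both contrasts (adjusted p = 0.0014 and 0.000186). Against D. simulans, eIF4G1 (-1.91 ± 0.49), eIF3k (-1.64 ± 0.40) and RpL34a (-3.35 ± 0.65) were lower too, with RpL34a values of -2.45, -4.07 and -6.67 spread widely over the sechellia arrays. With the spread of the compared arrays only, eIF4G1 and RpL34a no longer passed. After quantile normalization RpL34a (-1.12) and eIF3k (-1.10) did not pass either. Against D. melanogaster, eIF4B (-2.61 ± 0.48), eEF1delta (-2.77 ± 0.54) and RpS28b (-1.98 ± 0.41) were lower.

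The one higher gene in D. sechellia was eIF3c, a core subunit of eIF3. It had 4.05, 3.20 and 0.94 in D. sechellia, against -0.72, -0.56 and -0.28 in D. simulans and -0.87, -0.94 and -0.23 in D. melanogaster. The groups did not overlap, and the differences were 3.25 ± 0.50 and 3.41 ± 0.50 (SE, adjusted p = 0.000142 and 4.51e-05). With the spread of the compared arrays only, the first no longer passed (adjusted p = 0.0639). In the sechellia hybrid eIF3c stood at 0.28, 0.30 and 0.45.

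The 6 members that were not tested had values on fewer than 2 arrays in at least 1 group. RpL32, the ribosomal protein gene often used as a loading control, is on the array as 20 spots, and at most 1 sechellia hybrid array held values for it. Averaged over its spots it stood at 0.08, 0.00 and 0.15 in the melanogaster hybrid, against -0.39, -0.52 and -0.49 in D. simulans and -1.25, -1.42 and -0.68 in D. melanogaster. One of its spot pairs gave 1.49, 2.32 and 1.98 in the hybrid, while its other spots averaged -0.09, -0.25 and -0.06, so the spots of this gene disagreed in that hybrid. RpL29 had 0.02, 1.04 and 0.77 in the melanogaster hybrid, against -0.75, -1.01 and -1.65 in D. simulans and 0.07, -0.31 and -1.42 in D. melanogaster, with an overlap on 1 array. RpS20 had 0.87, 1.46 and 0.42 in the melanogaster hybrid, against -0.03, -0.02 and 0.30 in D. simulans. eEFSec, which places selenocysteine, had -0.27, -0.27 and -0.06 in that hybrid and eIF2D 0.31, -0.38 and 0.02. For eIF5B, the factor that joins the subunits, a value was held on 1 array only.

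Other genes of translation were counted from 5 lists, whose shares are to be read against those of all tested genes. In melanogaster testes 30.4% of all tested genes were higher and 13.9% lower. In melanogaster testes against whole males, 4 of 10 aminoacyl-tRNA synthetase genes were higher and none was lower; the mitochondrial TrpRS-m (2.43 ± 0.34 SE) and ValRS-m (1.91 ± 0.37) were among them. Of 3 termination and rescue genes 2 were higher, including pelo, which frees stalled ribosomes (1.65 ± 0.29). Among 15 genes of translational control 4 were higher and 2 lower. Paip2, which binds the poly(A)-binding protein (2.86 ± 0.35), and the germline RNA-binding protein gene Rbp4 (2.37 ± 0.42) were higher. Of 21 ribosome biogenesis genes 5 were higher and 4 lower, and of 10 ribosome-associated genes 3 were higher and 3 lower. The receptor protein of the small subunit, Rack1, was lower by 2.69 on the log2 scale.

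In the melanogaster hybrid 12.4% of all tested genes were higher and 19.6% lower. Of the synthetases 1 rose and 2 fell, TrpRS-m by 4.12 on the log2 scale. None of the 3 termination genes passed. In translational control 2 rose and 4 fell, among them Paip2 (-4.35 ± 0.42), orb2, a translational regulator needed for meiosis in the fly testis (-2.86 ± 0.28), and Rbp4 (-2.43 ± 0.51). Of the 21 ribosome biogenesis genes 1, Non1, rose (3.66 ± 0.69) and none fell, with a median difference of 0.27. Of the ribosome-associated genes 5 rose and 1 fell. The subunit gene of the nascent chain complex Nacalpha rose by 4.62 ± 0.48, SrpRalpha of the signal recognition receptor by 1.94 ± 0.32 and Rack1 by 2.15 ± 0.47, while betaNACtes3, a testis form of the nascent chain complex, fell by 1.92 on the log2 scale (adjusted p = 2.65e-07, 8.36e-05, 0.0014 and 0.0012). In the mauritiana hybrid 1 gene of the 5 lists passed (Srp9, 1.25 ± 0.30), and in the sechellia hybrid 2 did, TrpRS-m (-2.46 ± 0.42) and betaNACtes4 (-1.26 ± 0.36). Of all tested genes 1.78% were higher and 0.548% lower in the mauritiana hybrid, and 1.04% and 4.78% in the sechellia hybrid.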

How the data were processed

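Expression was measured on 22 two-colour arrays. The authors deposited 1 value per spot, taken here as a log2 ratio of testes over whole melanogaster males, with the direction per the labels' titles. Background correction, normalization within arrays and the log base are not given in the sources used here; on the sechellia arrays 8.01% or more of the sizes between 3 and 8, as powers of 2 times 4, fell within 0.001 of a whole number (at most 0.690% elsewhere). Of 27648 rows 15116 had 1 gene symbol, 102 several and 12430 none; arrays held 13019 to 27648 values, and the number of arrays limits the precision. Arrays were centred on the median of rows with 1 symbol and the rows of a gene averaged (136 rows for the members). The test was limma (version 3.58.1, under R 4.3.3) with 1 mean per group over all arrays, lmFit and eBayes, adjusted by Benjamini-Hochberg over 5107 genes. The fit was also run on simulated data with independent noise on each array, which cannot test effects shared between arrays. Named were up to 6 members called each way per comparison, the gene copies of a fixed list, untested members, and up to 3 genes of each other list; values given for further members complete their class. Members, lists, classes and alternatives were chosen with earlier results of these data known.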

Additional observations from a re-analysis of the deposited data

Results flagged for a closer look

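For 14 members the effect against the parental mean differed between the melanogaster and the mauritiana hybrid by a test of that difference in the fit of all arrays (limma adjusted p under 0.05). It was higher in the melanogaster hybrid for 12.8% of the tested members, against 5.58% of all tested genes. The share with a lower effect was 17.0%, near the 17.4% of all tested genes. Lower in the melanogaster hybrid were eIF4E5 (-6.48), eIF4E3 (-5.49), eIF3d2 (-4.74), eIF4H2 (-4.06), eIF4G2 (-3.04), RpS10a (-2.15), RpS19b (-2.05) and eIF6 (-1.99). Higher in it were RpL17 (3.11), RpL27 (2.75), eIF3f1 (2.51), RpL28 (2.12), RpS28b (1.81) and RpL39 (1.55). For RpL39 the value averages 2 spot pairs that differ.

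D. mauritiana is the only group with 4 arrays, and of 46 members with 4 values 2 had an array far from the other 3 by Dixon's ratio past its critical value. RpL24-like stood at 1.25 on mauritiana 4, and eIF3c at 0.37 on mauritiana 2. Chance gives such an array in about 1 in 20 genes.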

How the results depend on the processing

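Of 58 results for named genes, 41 passed under every alternative run on them, 17 were lost in at least 1 and 0 changed direction. Shares of all tested genes under the alternatives are not given, apart from those above for the spread of the compared arrays. The counts that follow therefore cannot tell a change of the members from a change of all tested genes. The count of 25 members called in the melanogaster hybrid was 19 to 37 under the alternatives that leave out no single array. Array weights raised the count to 42 for melanogaster testes against whole males, 28 for simulans and 19 for mauritiana against melanogaster, 17 for mauritiana and 23 for sechellia against simulans, 21 for the mauritiana hybrid and 14 for the sechellia hybrid. With the spread of the compared arrays only it was 12 for simulans and 13 for sechellia against melanogaster, and 8 for mauritiana and 5 for sechellia against simulans. Scaling arrays to 1 spread gave 1 for simulans against melanogaster, 10 for mauritiana against simulans and 3 for the sechellia hybrid, and quantile normalization gave 4, 11 and 5. Without centring the count was 8 for sechellia against simulans, 0 for the mauritiana hybrid and 6 for the sechellia hybrid. With 1 row per gene it was 1 for mauritiana against melanogaster, 1 for mauritiana against simulans and 1 for the mauritiana hybrid. Close array pairs were melanogaster 1 and 2, simulans 1 and 2, and sechellia hybrid 1 and 3, which correlated at 0.973, 0.981 and 0.833. With these pairs averaged the count was 17 for melanogaster testes against whole males and 19 for the melanogaster hybrid. It was 0 and 1 for mauritiana against melanogaster and simulans, 6 for sechellia against simulans and 1 for the mauritiana hybrid. Without the sechellia arrays it was 1 for simulans against melanogaster and 5 for mauritiana against simulans. The sechellia hybrid had 1 when centred on the tested genes, 1 for genes on all arrays and 1 with exact zeros missing. The cause was not tested.

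Replicate numbers did not pair the samples: deviations of same-numbered arrays correlated at -0.33 to 0.37, over 0.1 in 20 of 63 pairs. With the replicate number as a block, 5 members passed for mauritiana against melanogaster, 2 for the sechellia hybrid, 24 for melanogaster testes against whole males and 27 for the melanogaster hybrid.

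Leaving out 1 array at a time gave 18 to 21 members for melanogaster testes against whole males, 0 to 0 for simulans, 0 to 4 for mauritiana and 17 to 23 for sechellia against melanogaster. It gave 1 to 5 for mauritiana (5 without mauritiana 2) and 9 to 18 for sechellia against simulans. For the melanogaster, mauritiana and sechellia hybrids against their parents it gave 18 to 23, 0 to 3 and 0 to 7, and for the melanogaster against the mauritiana hybrid 12 to 16.

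Scaling moved the median of all tested genes by over 0.1 (log2) in several comparisons. Without centring it moved by -0.15 for melanogaster testes against whole males, 0.27 and 0.28 for sechellia against melanogaster and simulans, and -0.20, -0.27 and -0.41 for the melanogaster, mauritiana and sechellia hybrids. Centred on the tested genes the shifts were -0.20 for melanogaster testes, 0.16, 0.15 and 0.33 for simulans, mauritiana and sechellia against melanogaster, 0.17 for sechellia against simulans, 0.12 for the melanogaster hybrid and 0.12 between the hybrids. Quantile normalization moved it by -0.26 for melanogaster testes, 0.29 and 0.27 for sechellia, and 0.10 between the hybrids. Under quantile normalization the higher and lower members were 12 and 17 for melanogaster testes, 5 and 6 for mauritiana against simulans, 4 and 15 for sechellia against melanogaster, 4 and 11 for sechellia against simulans, and 18 and 9 between the hybrids. Scaled to 1 spread they were 4 and 12 for sechellia against simulans and 15 and 9 between the hybrids. Without centring they were 0 and 2 for mauritiana against simulans, and centred on the tested genes 3 and 17 for sechellia against melanogaster.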
